A study of Rattus norvegicus with 16 samples.

Results

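The heart libraries of a small RNA sequencing study in the rat are described here against its other tissues. They were chosen by their tissue label alone, and they are 2 of the 12 libraries of the six-tissue set and 2 of the 16 libraries of the series. The study sequenced small RNA of whole organs, namely heart, kidney, testis, spleen, liver and brain, from adult male rats of the inbred strains BN-Lx, a polydactyly-luxate brown Norway rat, and SHR, the spontaneously hypertensive rat. Each strain was 1 rat that gave all 6 tissues, so the strains served as replicates. With strain as a term in the tests, a p-value measures only how tissue differences vary between these rats of different strain. The other 4 libraries are further livers and entered alternatives only.

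MiRNAs are cut from a hairpin precursor whose 5' arm and 3' arm can each give a mature miRNA. A mature miRNA finds its target transcripts mainly through its seed, the bases close to its 5' end, so miRNAs with the same seed are grouped as a family. Striated muscle is known for a small set of miRNAs, mir-1, mir-133, mir-206, mir-208 and mir-499, of which mir-208, mir-208b and mir-499 lie inside genes of myosin heavy chains. A whole heart also holds smooth muscle, endothelium, fibroblasts and blood, whose miRNAs are read in the same library. In such a bulk library fewer cells of a type and less RNA per cell cannot be told apart.

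The mature sequences of the muscle arms are shown because the largest differences of the heart rest on them. They are the RefSeq entries of the rat assembly GRCr8, written 5' to 3', with the seed (bases 2 to 8) in capitals.
miR-1-3p: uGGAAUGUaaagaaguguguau
miR-206-3p: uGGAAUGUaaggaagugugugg
miR-133a-3p: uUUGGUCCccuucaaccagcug
miR-133b-3p: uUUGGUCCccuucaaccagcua
miR-133a-5p: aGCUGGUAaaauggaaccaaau
miR-208a-5p: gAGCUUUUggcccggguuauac
miR-208a-3p: aUAAGACGagcaaaaagc
miR-208b-3p: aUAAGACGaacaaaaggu
miR-499-5p: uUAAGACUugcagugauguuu
miR-499-3p: aACAUCACagcaagucugugcu
The 3' arms of mir-1 and mir-206 share the seed GGAAUGU, those of mir-133a and mir-133b share UUGGUCC, and those of mir-208 (named Mir208a in RefSeq) and mir-208b share UAAGACG. In the GRCr8 gene table, Mir208a lies within Myh6, Mir208b within Myh7 and Mir499a within Myh7b, which encode myosin heavy chains. Mir1 and Mir133a1 both lie within Mib1 and within 10 kb of each other, and Mir133b lies within 10 kb of Mir206. Strands were not compared, and the files use another build, RGSC3.4, so no positions are given.

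The BN-Lx heart library held 403453 reads and the SHR heart library 630467, while the other tissues apart from testis ranged from 468081 to 1064894 reads. Testis was far shallower, at 26880 and 29131 reads, so a single testis read weighs heavily as a level. Reads were summed per hairpin arm, which gave 696 arms on 387 hairpins in the six-tissue set, and levels are given as the library's reads scaled to a sum of 1000000 (rpm). Without molecular identifiers PCR duplicates count as reads, so the intervals and limits below cover counting error only. The paper states that capture bias affects small RNA read frequencies and that those per arm may mislead. Levels of different miRNAs or arms are therefore shares of reads and not amounts of RNA. Where an arm has no reads in a tissue, its fitted difference depends on a small added number and is no bound.

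A comparison of heart with the mean of the other tissues asked which arms mark the heart or are scarce in it. The edgeR quasi-likelihood test, with tissue and strain as terms, called 58 of 457 tested arms higher in heart (12.7%) and 31 lower (6.78%) at an adjusted p of 0.05. The arms higher were led by the muscle miRNAs, mir-1, mir-133, mir-208 and mir-499, whose 8 arms had the largest differences. The arms next in size, hsa-mir-490-5p and hsa-mir-507-5p, rest on few reads, and arms that smooth muscle and vessels are known for were called at smaller differences. Among the arms lower with the largest differences were mir-375-3p, mir-200b-3p and mir-183-5p, which epithelium is known for. Both heart libraries lay above all 10 other libraries in rpm for 21 arms (4.60%) and below all of them for 15 (3.28%). The median fitted difference over all tested arms was -0.33 on the log2 scale with TMM scaling and -0.82 with scaling by total reads, where 45 arms were higher and 64 lower. Of the 58 higher arms 44 were also called under RLE, total-read and outlier-corrected-mean scaling, and all 31 lower arms were. Without the BN-Lx heart library 36 arms were higher and 8 lower, and without the SHR heart library 38 and 10.

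**Figure D1:**
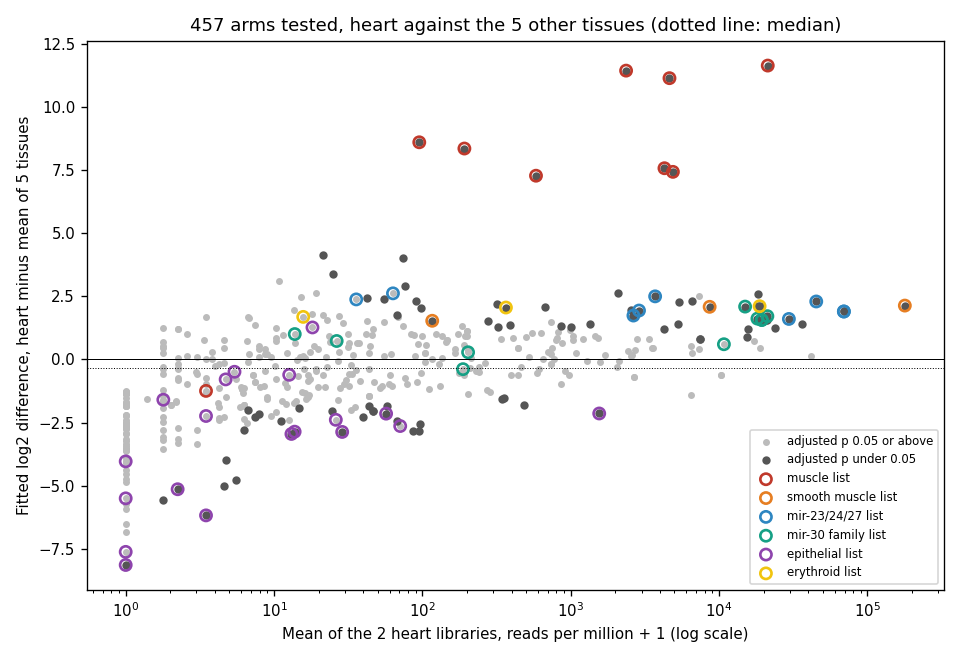
Fitted log2 difference of heart against the mean of the 5 other tissues (y axis) for each of the 457 tested arms, over the mean level of both heart libraries in rpm plus 1 (x axis, log scale). Dark points passed an adjusted p of 0.05 and rings mark listed families; 8 muscle arms stand at log2 differences from 7.28 to 11.65, while the called smooth muscle, mir-23/24/27 and mir-30 arms lie from 1.53 to 2.50, many of them at higher levels.

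The muscle list held 7 hairpins, mir-1, mir-133a, mir-133b, mir-206, mir-208, mir-208b and mir-499. Of its 9 tested arms 8 were higher in heart than the mean of the other tissues (88.9%, against 12.7% of all arms). The same 8 were higher than each of the 5 tissues taken alone, which held for 13 of all 457 arms (2.84%). The exception was mir-206-3p. The arms mir-1-5p (98 reads in heart, 1 elsewhere), mir-208-5p (2471 and 7), mir-133a-5p (4817 and 23) and mir-499-3p (199 and 22) passed the expression filter only through heart. For them hardly any call but higher was open, so the counts and medians of the list are descriptions. Against each tissue 6 of the 8 kept the call with scaling by total reads, with the outlier-corrected mean and with DESeq2, where mir-1-5p and mir-499-3p lost it, and 7 with RLE scaling, where mir-1-5p lost it. The median fitted log2 difference of the 9 arms was 8.36, against -0.33 over all arms tested. With arms under 3 reads in a tissue set at that floor, the medians were 6.94 and -1.31. Summed over the list, muscle reads made up 3.32% of the BN-Lx heart and 4.34% of the SHR heart, and between 0.00257% and 0.0309% of the other libraries.

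The arm mir-1-3p, known to restrain growth of heart muscle cells, had the most reads of the list. It had 6413 reads (15895 rpm) in the BN-Lx heart and 16791 reads (26633 rpm) in the SHR heart. In the other libraries its level had a median of 6.36 rpm and ranged from 0 in BN-Lx spleen and BN-Lx testis to 57.7 rpm in BN-Lx liver, so the groups did not overlap. The fitted log2 difference was 11.65 (SE 0.52, adjusted p = 6.98e-09). The opposite arm, mir-1-5p, had 37 and 61 reads in the heart libraries and 1 read in all 10 others, with a fitted log2 difference of 8.61 (SE 0.89, adjusted p = 0.000209).

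From mir-133a, which is co-expressed with mir-1 in muscle, both arms were read at like levels in heart. The 3' arm had 2009 reads in the BN-Lx heart (4980 rpm) and 3012 in the SHR heart (4777 rpm), against a median of 39.8 rpm and a highest value of 120 rpm, in SHR testis, elsewhere. The 5' arm had 1804 reads (4471 rpm) and 3013 reads (4779 rpm), against a median of 1.83 rpm and a highest value of 37.2 rpm, which was 1 read in BN-Lx testis. Neither arm overlapped with another tissue, and the fitted log2 differences were 7.44 (SE 0.34, adjusted p = 6.98e-09) for the 3' arm and 11.15 (SE 0.55, adjusted p = 3.16e-08) for the 5' arm. The 5' arm took 47.3% of the hairpin's reads in the BN-Lx heart (95% Clopper-Pearson interval 45.7% to 48.9%) and 50.01% in the SHR heart (48.7% to 51.3%). Outside heart the 3' arm held most of the few reads left, 44 against 6 in BN-Lx brain for example. Reads of the 3' arm that also match mir-133b were divided evenly between both hairpins. The shares and their intervals depend on that division.

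The relative mir-133b gave 1933 reads of its 3' arm in the BN-Lx heart (4791 rpm) and 2374 in the SHR heart (3765 rpm). Other libraries ranged from 6.10 rpm in BN-Lx spleen to 149 rpm in BN-Lx testis, with a median of 32.7 rpm, and the fitted log2 difference was 7.58 (SE 0.35, adjusted p = 6.98e-09). No read of the 5' arm of mir-133b was found in either heart library, which allows a share of up to 0.191% of the hairpin's BN-Lx heart reads and 0.155% of its SHR heart reads as the upper bound of the interval. Reads matching more than one hairpin were shared out in equal parts by the authors, so the values of mir-133a-3p and mir-133b-3p are not independent.

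Reads of mir-208, which lies within the gene of the alpha myosin heavy chain, came almost only from heart. The 5' arm had 894 reads in the BN-Lx heart (2216 rpm) and 1577 in the SHR heart (2501 rpm), and the other 10 libraries held 7 reads together, with 2 in BN-Lx liver as the most. Pooled over libraries and per read sequenced, it was 1819 times as frequent in heart as elsewhere (95% counting interval 882 to 4529), with a fitted log2 difference of 11.45 (SE 0.53, adjusted p = 1.94e-08). The 3' arm, by contrast, had 3 and 13 reads in heart and none elsewhere, which is at least 27.5-fold higher when the others are set at a floor of 3 reads over the group. The 5' arm thus held 99.7% of the hairpin's reads in the BN-Lx heart (interval 99.03% to 99.9%) and 99.2% in the SHR heart (98.6% to 99.6%). The homologue mir-208b, which lies within the gene of the beta myosin heavy chain, was nearly unread, with 5 reads of its 3' arm in each heart library and 1 in SHR testis, and with 1 and 3 reads of its 5' arm.

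The hairpin mir-499, from a further myosin heavy chain gene, reached 501 rpm of its 5' arm in the BN-Lx heart and 663 rpm in the SHR heart (418 reads). Its next level was in SHR kidney, with 65 reads (109 rpm), followed by BN-Lx kidney with 13 reads (23.9 rpm), and both testis libraries held none. The fitted log2 difference was 7.28 against the mean of the 5 tissues (SE 0.62, adjusted p = 5.12e-06) and 3.74 against kidney alone. Its 3' arm had 183.4 and 198.3 rpm in heart, 12 and 7 reads in kidney, 3 in SHR brain and none in the other libraries, with a fitted log2 difference of 8.36 (SE 0.83, adjusted p = 8.33e-05).

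The skeletal muscle miRNA mir-206 was not called higher in heart. Its 3' arm had 2 reads in the BN-Lx heart and 0 in the SHR heart, against 60 and 20 in brain and 42 and 21 in liver. Heart was called lower than brain and than liver in the single comparisons. Against the mean of the tissues the arm was not called (log2 difference -1.25, SE 64.4). The BN-Lx heart, at 4.96 rpm, lay above both spleen libraries (2.71 and 2.01 rpm) and both testis libraries, which held no read. The seed of mir-206-3p equals that of mir-1-3p, printed above, which had 23204 reads in both hearts together against 2 of mir-206-3p.

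**Figure D2:**
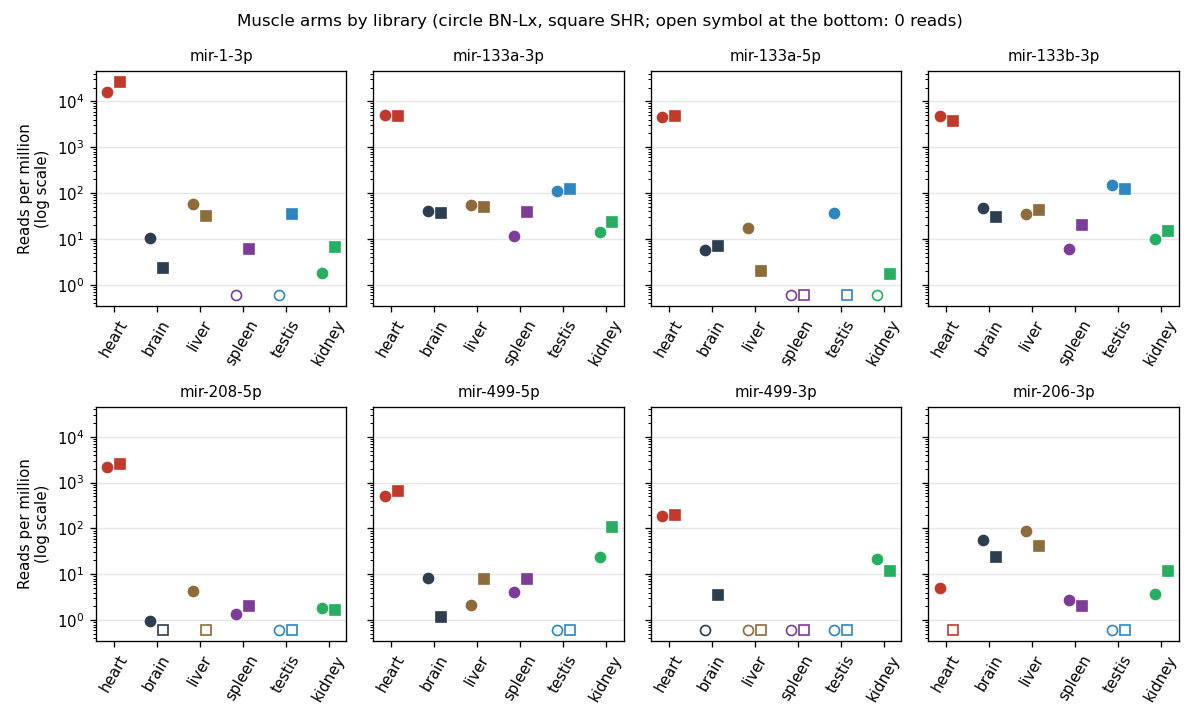
Level of 8 muscle arms in rpm (y axis, log scale) in each of the 12 libraries by tissue, with circles for BN-Lx, squares for SHR and open symbols at the bottom for 0 reads. Heart lies above every other library for 7 of the arms, and for mir-206-3p it lies under brain and liver and overlaps with spleen, testis and kidney.

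The 5' ends of several muscle arms were split over neighbouring positions. For mir-133a-3p, 48.1% of the reads in the BN-Lx heart and 40.5% in the SHR heart began at the RefSeq start, base 52 of the RefSeq hairpin counted from its first base, and 46.8% and 54.1% began at base 53. The shifted form is printed because its seed is another one, UGGUCCC.
miR-133a-3p from base 53: uUGGUCCCcuucaaccagcug
The arm mir-133b-3p was split alike, with 57.1% and 51.9% of its reads at the RefSeq start and 39.5% and 44.1% at the next base. For mir-499-3p the positions were the RefSeq start, with 55.4% and 43.2%, and the base before it, with 44.6% and 56.0%. In contrast, 97.0% of the mir-1-3p reads of the BN-Lx heart and 97.1% of those of the SHR heart began at 1 base, the RefSeq start. These shares are descriptions with no test.

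Smooth muscle and endothelium were read from mir-143, mir-145 and mir-126. The hairpins mir-143 and mir-145 are known for smooth muscle and lie together in the transcript Carmn, and mir-126 is an endothelial miRNA within Egfl7. All 3 tested arms of mir-143 and mir-145 were called higher in heart, against 12.7% of all arms. Of 6 tested arms of mir-126, mir-221 and mir-222 only both arms of mir-126 were called (33.3%). The abundant arms are shown for comparison with the muscle arms.
miR-145-5p: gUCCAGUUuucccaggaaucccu
miR-143-3p: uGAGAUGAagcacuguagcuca
miR-126a-3p: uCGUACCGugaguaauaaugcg

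The arm mir-145-5p had the most reads of all arms in both hearts. It had 74892 reads in the BN-Lx heart (18.6% of the library, 185628 rpm) and 108078 in the SHR heart (17.1%, 171425 rpm). Elsewhere its level ran from 19426 rpm in BN-Lx brain over a median of 64573 rpm to 136086 rpm in BN-Lx testis, where it was also the top arm, so heart did not overlap with the other libraries. Heart was higher than each of the 5 tissues, by a fitted log2 difference of 2.14 against their mean (SE 0.18, adjusted p = 3.09e-06), but it was not called against each tissue with scaling by total reads or by the outlier-corrected mean. The arm mir-143-3p had 8720 rpm and 8535 rpm in heart, against at most 5357 rpm in BN-Lx testis, with a log2 difference of 2.09 (SE 0.25, adjusted p = 7.1e-05). It was called against all tissues but spleen. The minor arm mir-145-3p had 121 and 109 rpm in heart within the range of the others (up to 137.3 rpm). Its call, at a log2 difference of 1.53 and an adjusted p of 0.0295, was kept in 13 of 23 alternatives. It was lost with scaling by total reads (adjusted p of 0.115) and by the outlier-corrected mean (0.107), and without either heart library. Among the single tissues the arm was called against brain alone.

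For mir-126-3p the heart levels were 20600 rpm in BN-Lx and 16196 rpm in SHR. Kidney came next with 17209 and 17994 rpm, and the ranges of heart and kidney overlapped. Against the mean the fitted log2 difference was 2.11 (SE 0.23, adjusted p = 3.34e-05), with calls against brain, spleen and testis. The 5' arm of mir-126 stood at 2741 and 2376 rpm in heart, above the highest other value of 2209 rpm in SHR kidney. Its log2 difference was 1.95 (SE 0.30, adjusted p = 0.000363), with calls against brain, spleen and testis but not against liver or kidney. The hairpins mir-221 and mir-222 are known from endothelium and smooth muscle as well. The arm mir-221-3p had 3 and 10 reads in heart (7.44 and 15.9 rpm), 704 and 373 in brain, and 27.8 and 2.00 rpm in liver. The arm mir-222-3p had 4 and 37 reads in heart (9.91 and 58.7 rpm), 913 and 813 in brain, and 27.8 and 7.98 rpm in liver, so the levels of both arms in liver and heart overlapped. Neither passed the test against the mean of the tissues, at adjusted p-values of 0.0885 and 0.117.

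**Figure D3:**
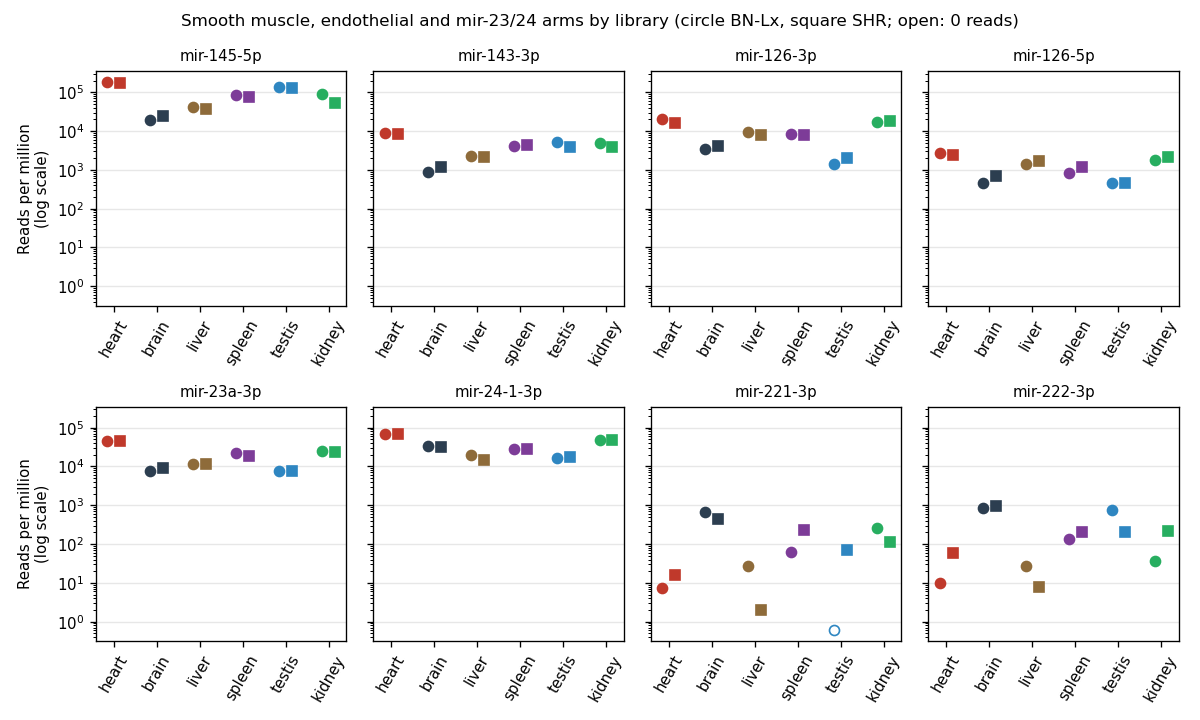
Level in rpm (y axis, log scale) of smooth muscle, endothelial and mir-23/24 arms in each library by tissue, with circles for BN-Lx, squares for SHR and open symbols for 0 reads. Heart has the highest values for mir-145-5p, mir-143-3p, mir-23a-3p and mir-24-1-3p, overlaps with kidney for mir-126-3p, and lies far under brain for mir-221-3p and mir-222-3p.

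Among the other abundant families, the arms of the mir-23, mir-24 and mir-27 clusters made up 21.9% of the BN-Lx heart and 22.6% of the SHR heart, against 5.32% to 16.4% elsewhere. Mir23a, Mir27a and Mir24-2 lie within 10 kb of one another in GRCr8, and so do Mir23b, Mir27b and Mir24-1 within Aopep. Of 9 tested arms 7 were higher in heart (77.8%, against 12.7% of all arms). The arm mir-23a-3p and both copies of mir-24-3p were higher than each tissue. With scaling by total reads or by the outlier-corrected mean only mir-23a-3p of these kept the call against each tissue. The arm mir-23a-3p had 44906 and 45365 rpm in heart and at most 24655 rpm elsewhere, in BN-Lx kidney (log2 difference 2.30, SE 0.20, adjusted p = 3.09e-06). The level of mir-24-1-3p was 68196 and 70395 rpm in heart and 47632 and 47648 rpm in kidney, the next tissue (log2 difference 1.90, SE 0.17, adjusted p = 4.19e-06). Both mir-24 hairpins share their reads evenly and are 1 measurement.

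Of 10 tested arms of the mir-30 family, 5 were higher in heart, against 12.7% of all arms. They were those of mir-30a, mir-30c-1, mir-30c-2, mir-30d and mir-30e on the 5' side. Both copies of mir-30c-5p had near-equal reads in heart (19793 and 19797) and are nearly 1 measurement. The 5' arms of mir-30a, mir-30c-1, mir-30c-2 and mir-30e share the seed GUAAACA in the RefSeq entries matched, and no seed is given here for mir-30d. The arm mir-30a-5p, at 22835 and 19448 rpm in heart, stayed under both kidney libraries (33870 and 49315 rpm). Its call was lost without the BN-Lx heart library (adjusted p = 0.0592). The mir-29 family, known to act on collagen transcripts, gave no call in its 8 arms. The arm mir-29a-3p stood at 35129 and 48187 rpm in heart and overlapped with the other libraries, which ran from 36299 rpm over a median of 43659 rpm to 127769 rpm in SHR brain. In the mir-15/16 family 1 of 8 arms was higher (12.5%, against 12.7% of all arms), mir-322-5p, with 2345 and 1848 rpm against at most 816 rpm elsewhere and a log2 difference of 2.62 (SE 0.39, adjusted p = 0.0003). The arm mir-99a-5p was called higher than each tissue although its levels, 26504 and 20729 rpm, overlapped in rpm with those of testis (25967 and 25574 rpm) and SHR brain, whose TMM factors were above 1 while those of heart were 0.739 and 0.750. Its call against each tissue was lost with RLE, total-read and outlier-corrected-mean scaling and with DESeq2.

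Markers of other cells in a whole heart were also read. Of the list for mesenchymal cells 3 of 5 tested arms were higher, both arms of mir-199a and mir-214-3p, which stood at 349 and 287 rpm in heart and at most 261 rpm elsewhere. The arm mir-21-5p was not called and stood at 4343 and 8489 rpm in heart, against 120859 and 133434 rpm in spleen. Summed with mir-21, the mesenchymal list made up 1.64% and 2.10% of the heart libraries, and 0.0747% to 14.3% of the others. Only the brain libraries lay under heart in that sum. Of 3 tested erythroid arms of mir-144 and mir-451, 2 were higher than the mean (66.7%, against 12.7% of all arms). The arm mir-451-5p had 25205 rpm in the BN-Lx heart and 12266 in the SHR heart, under both spleen libraries (88941 and 55694 rpm) and over the rest. Of 6 tested leukocyte arms 1 was higher, mir-150-5p (17033 and 14339 rpm), also under spleen, a share of 16.7% against 12.7% of all arms. The summed leukocyte list made up 2.27% and 2.21% of the heart libraries, and 0.600% to 18.8% of the others. The summed erythroid list made up 2.56% and 1.27%, against 0.174% to 9.07%. The part of blood left in the organs in these levels was not tested.

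The lists of other tissues are read against the 6.78% of all arms that were lower in heart. Of 19 tested arms of the epithelial list 8 were lower (42.1%) and none higher. Of 25 neuronal arms 3 were lower, mir-129-2-3p and both copies of mir-138-5p, and of 63 arms of the imprinted Dlk1-Meg3 region 2 were lower (3.17%), a share under that of all arms. With scaling by total reads the neuronal and Dlk1-Meg3 counts became 5 and 15, while all lower arms rose from 31 to 64. Of 4 liver arms 1 was lower, mir-122-5p, of 21 testis arms 1 (4.76%, also under that share), mir-34c-5p, and of 8 arms of miRNAs embedded in Hox clusters 1, mir-10b-5p. None of 23 arms of the mir-17-92 cluster and its relatives was called, against 6 lower with scaling by total reads. Both tested arms of mir-204 and mir-211 were lower. A low mean contrast can rest on 1 tissue: mir-122-5p, the liver miRNA, had 29 and 62 reads in heart and 124614 and 161586 in liver, but its heart levels, 71.9 and 98.3 rpm, overlapped with those of spleen, 75.9 and 82.5 rpm.

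Only mir-466b-1-3p and mir-466b-2-3p were called lower than each of the 5 tissues (2 of 457 arms, 0.438%). Both hairpins lie within Sfmbt2 in GRCr8, within 10 kb of each other. Their sequences and those of the other low arms described next are shown to tell them apart.
miR-466b-3p of Mir466b-1: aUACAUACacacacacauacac
miR-466b-2-3p: aUAUACAUacacacauacaca
miR-672-5p: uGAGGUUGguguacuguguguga
miR-375-3p: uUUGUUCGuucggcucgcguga
The arm mir-466b-1-3p had 1 read in the BN-Lx heart and 3 in the SHR heart (2.48 and 4.76 rpm), and elsewhere from 30.1 rpm in SHR kidney over a median of 122 rpm to 1442 rpm in SHR testis. The fitted log2 difference was -5.02 (SE 0.68, adjusted p = 0.000193), and the largest adjusted p over the 5 tissues was 0.0203. The arm mir-466b-2-3p had 3 reads and 1 read in heart (7.44 and 1.59 rpm), and elsewhere from 23.2 to 1510 rpm. Its log2 difference was -4.79 (SE 0.70, adjusted p = 0.0003), with a largest adjusted p of 0.0443, so the calls against each tissue stand close to the threshold. Neither arm overlapped with another tissue. Pooled per read, they were 49.5 and 42.5 times as frequent outside heart.

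For mir-672-5p, which lies within Nexmif, the heart libraries held 0 reads and 1 read. The other libraries ran from 4.27 rpm in BN-Lx liver to 652 rpm in SHR testis, all above heart, and the fitted log2 difference was -5.56 (SE 0.91, adjusted p = 0.000659). It was called against all tissues but liver. The arm mir-375-3p, known from endocrine and epithelial cells, had 0 reads in both hearts, which allows up to 7.44 rpm in BN-Lx and 4.76 rpm in SHR. It had 6 to 150 reads in the other libraries apart from BN-Lx testis, which held 0, and 18 in SHR testis. With heart set at 3 reads over both libraries, it was at least 20.6-fold lower in heart per read pooled, and its call (adjusted p = 0.0109) was lost without the SHR heart library (0.173) and without the SHR testis library (1). The arm mir-200b-3p, of a family that marks epithelium, had 2 reads and 0 reads in heart against 1485 and 5211 in kidney. Its BN-Lx heart level, 4.96 rpm, lay over that of SHR brain (4.65 rpm). Among the single tissues it was called lower than brain, liver and kidney, but not spleen or testis. The call against the mean (adjusted p = 0.021) was lost without either heart library, without either spleen library and without the SHR testis library. Of the mir-183 cluster, mir-183-5p had 1 read and 0 reads in heart and up to 312 reads elsewhere, in BN-Lx brain, and its call (adjusted p = 0.041) was lost without either library of heart, liver, spleen or testis.

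**Figure D4:**
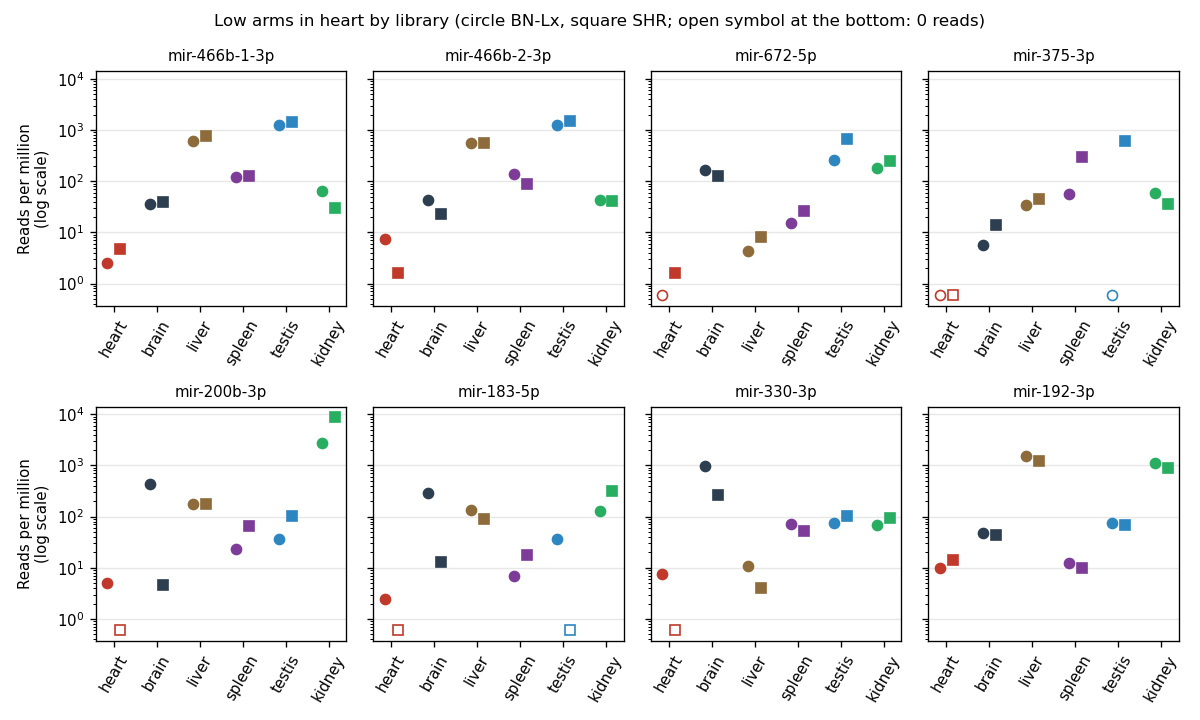
Level in rpm (y axis, log scale) of 8 arms that were lower in heart, in each library by tissue, with circles for BN-Lx, squares for SHR and open symbols at the bottom for 0 reads. Heart lies under every other library for both mir-466b arms and mir-672-5p, shares 0 reads with 1 testis library for mir-375-3p and for mir-183-5p, and overlaps with spleen for mir-192-3p.

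Under the rule that the study used for tissue-specific miRNAs, at least 5-fold in each strain after division by the outlier-corrected mean (the mean over arms without the 3 that have most reads), 10 of 696 arms were higher in heart than in every other tissue (1.44%) and 3 were lower (0.431%). All 10 were muscle arms, both arms of mir-1, mir-133a, mir-208 and mir-499 with mir-133b-3p and mir-208b-5p. The last rests on 1 read and 3 reads, and mir-208-3p on 3 and 13 reads. Both stood in heart under the level of 1 testis read (37.2 rpm in BN-Lx, 34.3 rpm in SHR). For these 2 arms the rule cannot show a difference from testis. With at least 10 reads in each heart library 8 arms were higher. The lower arms were mir-466b-1-3p, mir-672-5p and mir-501-5p, and mir-501-5p had no read in either heart and only 1 to 11 reads in each other library. The rule carries no test.

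In single comparisons, heart was higher than brain for 101 arms (22.1%) and lower for 153 (33.5%), higher than liver for 52 (11.4%) and lower for 41 (8.97%), and higher than spleen for 43 (9.41%) and lower for 53 (11.6%). It was higher than testis for 75 arms (16.4%) and lower for 60 (13.1%), and higher than kidney for 36 (7.88%) and lower for 38 (8.32%). Kidney had the next highest level for mir-23a-3p and mir-24-3p, and it overlapped with heart for mir-126-3p. These comparisons share the heart libraries and are given side by side only.

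The balance of the arms was compared over 119 hairpins with at least 20 reads in each library of heart, brain, liver, spleen and kidney, by limma on the log2 ratio of 5' to 3' reads. No hairpin had a higher share of the 5' arm in heart and 1 had a lower share (0.840%), mir-7a-1, while 19 passed an unadjusted p of 0.05. Both heart shares lay above all 8 other libraries for 4 hairpins (3.36%), mir-125a, mir-125b-2, mir-142 and mir-151, and below all of them for 5 (4.20%), mir-7a-1, mir-138-1, mir-103-1, let-7b and mir-339. The 5' arm of mir-126 took 11.7% in the BN-Lx heart and 12.8% in the SHR heart, within the range of 9.10% to 17.2% of the 8 other libraries.

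The miRNA mir-7a is known from neurons and endocrine cells. In heart 7.94% of the mir-7a-1 reads in BN-Lx (interval 4.70% to 12.4%) and 8.75% in SHR (5.89% to 12.1%) lay on the 5' arm. The shares were 38.1% and 43.5% in brain, 26.5% and 57.0% in spleen, 8.97% and 17.3% in kidney and 89.8% and 93.2% in liver, where the 3' arm held only 7 and 6 reads. The log2 ratio was lower by 3.31 than the mean of these tissues (SE 0.46, adjusted p = 0.0221). On simulated reads, however, this test called unchanged hairpins more often than its nominal rate. In testis, left out of the test, the shares were 5.88% in BN-Lx and 21.6% in SHR, on 25.5 and 37 reads. Heart thus overlapped with testis. In the 4 further livers the share was 30.7% to 49.2%, and with those livers added the adjusted p was 0.402. The call was also lost without either heart library (0.146 and 0.215), without either liver library (0.103 and 0.0971) and without the BN-Lx brain library (0.0726). Reads of the 5' arm are shared evenly with mir-7a-2, which the 3' arm is not.

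The hairpin mir-378, known to lie within Ppargc1b, a regulator of mitochondrial energy metabolism, differed between the hearts. Its 5' arm had 5890 reads in the BN-Lx heart and 21 in the SHR heart, and its 3' arm had 3641 and 17506, so the share of the 5' arm was 61.8% (interval 60.8% to 62.8%) and 0.120% (0.0742% to 0.183%). The other tissues of the six-tissue set ran from 3.402% in SHR spleen to 51.5% in SHR liver. Gaps between the strains were also seen outside heart, with 9.31% in BN-Lx liver against that SHR value and 22.1% in BN-Lx spleen, while the 4 further livers stood at 5.61% to 11.2%. The 3' arm was called higher in heart than the mean (log2 difference 2.59, SE 0.47, adjusted p = 0.00134), with 9025 rpm in BN-Lx and 27767 rpm in SHR. The BN-Lx value lay under both kidney libraries (16808 and 19363 rpm) and BN-Lx liver (14173 rpm), so heart overlapped with the other tissues. The 5' arm was not called (adjusted p = 0.177). Of 84 arms with at least 500 reads in either heart library, 72 lay within 2-fold between the strains in rpm, and mir-378-5p was the farthest apart, followed by mir-34a-5p with 501 rpm in BN-Lx and 5104 rpm in SHR. With 1 heart library per strain there is no test of these differences.

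**Figure D5:**
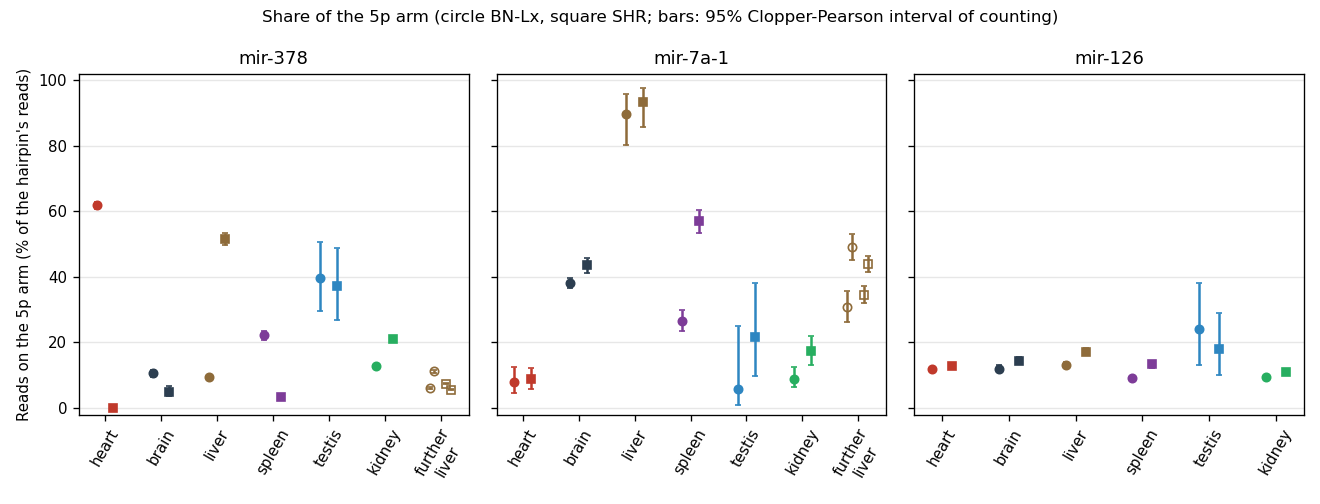
Share of a hairpin's reads on the 5' arm in percent (y axis) for mir-378, mir-7a-1 and mir-126 by tissue, with circles for BN-Lx, squares for SHR, hollow symbols for the 4 further livers and bars for the 95% Clopper-Pearson interval of counting. The hearts stand at 61.8% and 0.120% for mir-378, at 7.94% and 8.75% for mir-7a-1 and at 11.7% and 12.8% for mir-126.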

How the data were processed

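The authors isolated total RNA from whole frozen tissue, made small RNA libraries and sequenced them on SOLiD. They mapped the reads with SHRiMP to miRNA hairpins of RGSC3.4 and miRBase and kept perfect matches outside the loop. The deposited values are estimated counts, not normalized, given per library for every pair of start and end positions on a hairpin, and a read matching more than one hairpin was shared out in equal parts. PCR cycle numbers differed between libraries, so amplification may differ too.

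Here the estimated counts were summed per hairpin arm. A midpoint further than 20 nt from the named arm put a read on the other arm, and where the far side held fewer than 10 reads or under 1% of the hairpin's reads, the arm was taken from the position in the RefSeq hairpin. Levels (rpm) are reads scaled to a sum of 1000000 per library, with depths from 26880 to 1064894 reads. Sums were rounded and tested with edgeR 4.0.16 (quasi-likelihood, TMM, filterByExpr by tissue, tissue and strain as terms, Benjamini-Hochberg at 0.05, two-sided), with DESeq2 1.42.0 as an alternative. Arm choice was tested with limma 3.58.1 (trended eBayes) on log2((5' reads + 0.5)/(3' reads + 0.5)) for hairpins with at least 20 reads in each of 10 libraries, testis left out. Shares carry 95% Clopper-Pearson intervals, and the floor is 3 reads. Other software was R 4.3.3, Python 3.11.15, pandas 2.3.3, numpy 2.4.6 and scipy 1.17.1.

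Strain as a term is a replicate block, since 1 rat per strain gave all tissues. After tissue means were removed, the heart deviations correlated across 457 arms with those of the same rat's other tissues at -0.0320 to 0.0861, and over all 15 tissue pairs at -0.236 to 0.0861.

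Sequences and gene neighbours are those of RefSeq on GRCr8, where 284 of 333 arms looked up were matched. Named arms are all arms of the muscle, smooth muscle and endothelial lists, the 10 called arms with the largest and the 10 with the smallest difference, arms lower than each tissue, the 10 most abundant in heart, arms with a changed arm choice, and at most 4 examples per list. Arms named beside these, such as those of the 5-fold rule, of the lists' calls and of the arm shares, were chosen after their values were seen. The members and lists were chosen with earlier results of these data known. Both tests were tested on simulated reads, in which the arm-choice test called unchanged hairpins more often than its nominal rate. The piRNA clusters were not used.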

Additional observations from a re-analysis of the deposited data

Results flagged for a closer look

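In 3 arms the hearts of the strains moved in opposite ways against all 5 other tissues of their own strain, and the difference was not tested. The arm mir-195-5p was lowest in the BN-Lx heart, at 503 rpm against 744 rpm or more in the other BN-Lx tissues, and highest in the SHR heart, at 1559 rpm against 864 rpm or less. The arm mir-30e-3p had 26.03 rpm (10.5 reads) in the BN-Lx heart against 266 rpm or more elsewhere in that strain, and 378.3 rpm in the SHR heart, level with SHR kidney (377.9 rpm) and SHR testis (377.6 rpm). The arm mir-378-5p had 14599 rpm in the BN-Lx heart against at most 2479 rpm in the other BN-Lx tissues, and 33.3 rpm in the SHR heart against 44.2 rpm or more.

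In the further livers, which entered no main comparison, mir-1-3p and mir-206-3p in replicate 3 of both strains and mir-133a-5p in replicate 3 of BN-Lx were read above all 10 libraries of the other tissues of the six-tissue set. In replicate 3 the level of mir-1-3p was 528 rpm in BN-Lx (616 reads) and 498 rpm in SHR (1609 reads), against at most 57.7 rpm in the six-tissue set outside heart, while replicate 2 held 8 and 23 reads. The skeletal muscle arm mir-206-3p had 105 rpm in BN-Lx (123 reads) and 120 rpm in SHR (386 reads), and mir-133a-5p had 48.0 rpm in BN-Lx (56 reads). No read of mir-208 was found in any of the 4 further livers.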

How the results depend on the processing

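Of 888 refits of the named arms under another setting, 810 kept direction and side of the threshold, 71 lost the call, 6 gained one and 1 reversed: hsa-mir-507-5p was -0.63 with the other tissues as 1 group, where hsa-mir-507-3p (-1.86), mir-346-5p (-0.88) and mir-144-5p (-0.29) of the called arms also changed sign, none of the 4 called. Against the mean of the tissues, where 58 arms were higher and 31 lower, the counts were 33 and 19 after thinning to the shallowest library and 7 and 0 with the other tissues as 1 group, where the spread between tissues enters the error. Lower arms numbered 75 with DESeq2, 64 with total reads and 61 with the outlier-corrected mean. Leaving out 1 library gave 36 to 69 higher and 8 to 42 lower, the lowest counts without a heart library. Against each tissue, 13 arms higher became 7 with total reads or the outlier-corrected mean, 8 after thinning, 5 with the further livers added and 6 to 13 with 1 library left out. The 2 lower became 1 with no expression filter, with at least 10 reads in both libraries of a tissue or with paralogous hairpins summed, 0 after thinning, and 0 to 2 with 1 library left out (0 without either heart or brain library or the BN-Lx kidney). The 5-fold rule gave 1 lower arm with at least 10 reads, 5 at 3-fold, 1 at 10-fold, 10 in BN-Lx alone, 11 in SHR alone and 5 without testis. For arm choice, 1 hairpin was higher with testis included, 0 to 2 were higher and 0 to 1 lower with 1 library left out, 2 were lower with 1 read added or without the replicate block, and 0 with the further livers added (chosen after seeing the data). Without the replicate block, edgeR called 64 and 36 arms against the mean and 14 and 2 against each tissue. With 1 library of a tissue left out, the lone one is assumed to vary like the other tissues. Testis depth limits low arms: 3 reads there are 112 and 103 rpm, against 7.44 and 4.76 rpm in heart. Except where a setting tests fewer arms or reads by construction, the cause was not tested.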

Other observations

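Of 11 tested arms of mir-99a, mir-99b, mir-100, mir-125a and both mir-125b hairpins, grouped after their values were seen, 5 were higher in heart than the mean of the tissues, all on the 5' side. Among all 457 tested arms 58 were higher. The 5 included both copies of mir-125b-5p, which had near-equal reads in heart (21404.5 and 21142.5) and are nearly 1 measurement. The arm mir-99b-5p, with a log2 difference of 1.03 (adjusted p = 0.0837), was not called. Both copies of mir-125b-5p had log2 differences of 1.55 and 1.56 (SE 0.23, adjusted p = 0.0003 for each), with 22573 and 19505 rpm for mir-125b-1-5p in heart, and mir-125a-5p one of 1.39 (SE 0.22, adjusted p = 0.000435). They overlapped with brain, where mir-125b-1-5p had 23457 and 31638 rpm. The arm mir-100-5p had 5656 and 4903 rpm in heart and up to 9818 rpm in SHR testis (log2 difference 1.42, SE 0.29, adjusted p = 0.00311). The hairpin hsa-mir-507 showed 33 and 40 reads of its 5' arm in heart (81.8 and 63.4 rpm), 33 and 16 in kidney, 43 and 32 in testis (1600 and 1098 rpm) and at most 2 in any other library. Low reads also placed hsa-mir-490-5p among the largest differences (log2 4.16, SE 1.06, adjusted p = 0.0185). It had 8 and 13 reads in heart, 40 and 12 in brain and at most 2 elsewhere. Without the heart libraries this arm would not have passed the expression filter, so its difference and rank are descriptions. The call was lost without either heart library.

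On the low side, mir-33-3p, which lies in a gene of sterol regulation, had 52.1 and 61.9 rpm in heart and 172 to 446 rpm in the other 10 libraries (log2 difference -1.84, SE 0.44, adjusted p = 0.00881). It was called lower than each tissue with total-read scaling and with DESeq2. The arm mir-330-3p had 3 reads and 0 reads in heart and 1024 and 230 in brain, with 2 to 56 reads elsewhere (log2 difference -4.005, SE 0.92, adjusted p = 0.00758), a call that was lost without the SHR heart library.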
